A study of Mus musculus with 6 samples.

Results

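The Arg1 Spp1 cells described here are 192 white blood cells of mouse kidney with rhabdomyolysis, selected on their own transcripts from 4051 rhabdomyolysis cells and 12596 cells in all. A cell was a barcode that reached 500 gene UMIs (unique molecular identifiers, each marking 1 captured transcript) and 200 genes, did not exceed 15% UMIs of mitochondrial genes, and had 0.3% or more of its gene UMIs from Malat1, a nuclear RNA. A member was a rhabdomyolysis cell with at least 1 UMI of Arg1, at least 2 of Spp1 and at least 1 of Fn1, with S100a8 and S100a9 together below 1% of gene UMIs and with no UMI of Cd3e or Cd79a. These values chose the members, so the levels of Arg1, Spp1 and Fn1 are given as a description with no test.

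The series profiled CD45-positive cells from the kidneys of 8 week old C57BL/6J mice by droplet sequencing, with 3 libraries from control mice and 3 from mice with rhabdomyolysis, the breakdown of muscle that injures the kidney. Both groups carry the same strain, age and tissue labels; the agent that caused the muscle injury and the time after it are not given in the sources used here. Kidneys were digested with collagenase and DNase, red cells were lysed, and cells were stained with a viability dye and antibodies. Whether each library came from a different animal is not stated, so p-values measure only the spread between these libraries, which may be technical.

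Monocytes that leave the blood for injured tissue lose their blood program and become macrophages, and in wounds some of them pass through a state with arginase and secreted matrix proteins. Arg1 encodes arginase 1, which turns arginine into ornithine and urea, and ornithine is the precursor of polyamines and proline. Spp1 encodes osteopontin, a secreted ligand of integrins and CD44, Fn1 encodes the matrix protein fibronectin, Thbs1 encodes thrombospondin 1, an activator of latent TGF-beta, and Ecm1 encodes extracellular matrix protein 1, a secreted glycoprotein.

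The rule found 61, 51 and 80 members in rhabdomyolysis libraries 1, 2 and 3. They were 6.02%, 3.33% and 5.31% of the cells of these libraries, a mean of 4.89% ± 1.4 (SD, n = 3). The same rule found 0 members among 3471, 2828 and 2246 cells of control libraries 1, 2 and 3, which allows a share of up to 0.0864%, 0.106% and 0.134%, for counting error only. Control cells were shallower, with a median of 3608 to 3846.5 gene UMIs against 4596.5 to 6191 in all rhabdomyolysis cells and 13312 in members. Among Ly6c2 monocytes the median was 8042.5 to 9118 in control and 9994 to 11572 in rhabdomyolysis. A limit on UMIs is thus harder to reach in control cells. The libraries held 10816727, 15928192 and 22656666 gene UMIs for rhabdomyolysis and between 16666253 and 19427318 for control. In all, 16 cell barcodes occurred in more than 1 library, and 0 of them were members.

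The members were deeply covered cells, which bears on every share of cells with a UMI. Their median was 12210, 12052 and 14550 gene UMIs per cell in libraries 1, 2 and 3, against 10053, 9994 and 11572 in Ly6c2 monocytes and 6123, 5080.5 and 7749 in C1q macrophages. Their median mitochondrial share was 1.51% and their median Malat1 share was 1.04%. A doublet caller marked 0, 2 and 3 members in the 3 libraries.

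Many cells lay near the limit on Arg1, and fewer near those on Spp1 and Fn1. There were 12 members with 2 or 3 Spp1 UMIs, and 11 cells that met the rest of the rule had 1 Spp1 UMI and 46 had none. All of the cells with 1 to 3 Spp1 UMIs, on both sides of that limit, had Ecm1, and their median Fn1 was 9 UMIs inside and 7 outside. Among members, 47 had a single Arg1 UMI, while 218 cells met the rest of the rule with 0 Arg1 UMIs. Those 47 and 218 cells had a median of 16 and 15 Spp1 UMIs and of 10 and 7 Fn1 UMIs. There were 8 members with 1 Fn1 UMI and 15 cells outside with 0.

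Per member, Arg1 ranged from 1 to 208 UMIs with a median of 5, and Spp1 from 2 to 1329 with a median of 40. Fn1 ranged from 1 to 77 UMIs with a median of 13. The quartiles of Arg1 were 2 and 19 UMIs.

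Levels were summed over the cells of a group in each library and are given as counts per 1000000 gene UMIs (CPM). In members, Arg1 (ENSMUSG00000019987) was at 1406, 1662 and 860 CPM in libraries 1, 2 and 3. Free RNA, the UMIs in barcodes with at most 100 UMIs, held 66.6, 65.3 and 35.5 CPM of Arg1. Spp1 (ENSMUSG00000029304) was at 12852, 4983 and 10699 CPM in members, and Fn1 (ENSMUSG00000026193) at 983, 1186 and 1137. Library 2 was thus the highest of the 3 for Arg1 and the lowest for Spp1.

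The members held 9.94% of the gene UMIs of rhabdomyolysis cells but 82.0% of the Arg1 UMIs, 3320 of 4050. They also held 50% of the Spp1 UMIs, 37.7% of the Fn1 UMIs, 36.0% of the Ecm1 UMIs and 29.3% of the Thbs1 UMIs. Among 64 T cells of the same libraries, at a median of 3405.5 gene UMIs, 3.13% had an Arg1 UMI and 6.25% an Spp1 UMI. Among 222 B cells, at a median of 2367.5 gene UMIs, 0.450% had Arg1 and 4.50% had Spp1. The 2 T cells and the 1 B cell with Arg1 each had 2 or more of its UMIs and also met the limits on Spp1 and Fn1, so these 3 barcodes carry transcripts of both kinds of cell.

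**Figure D1:**
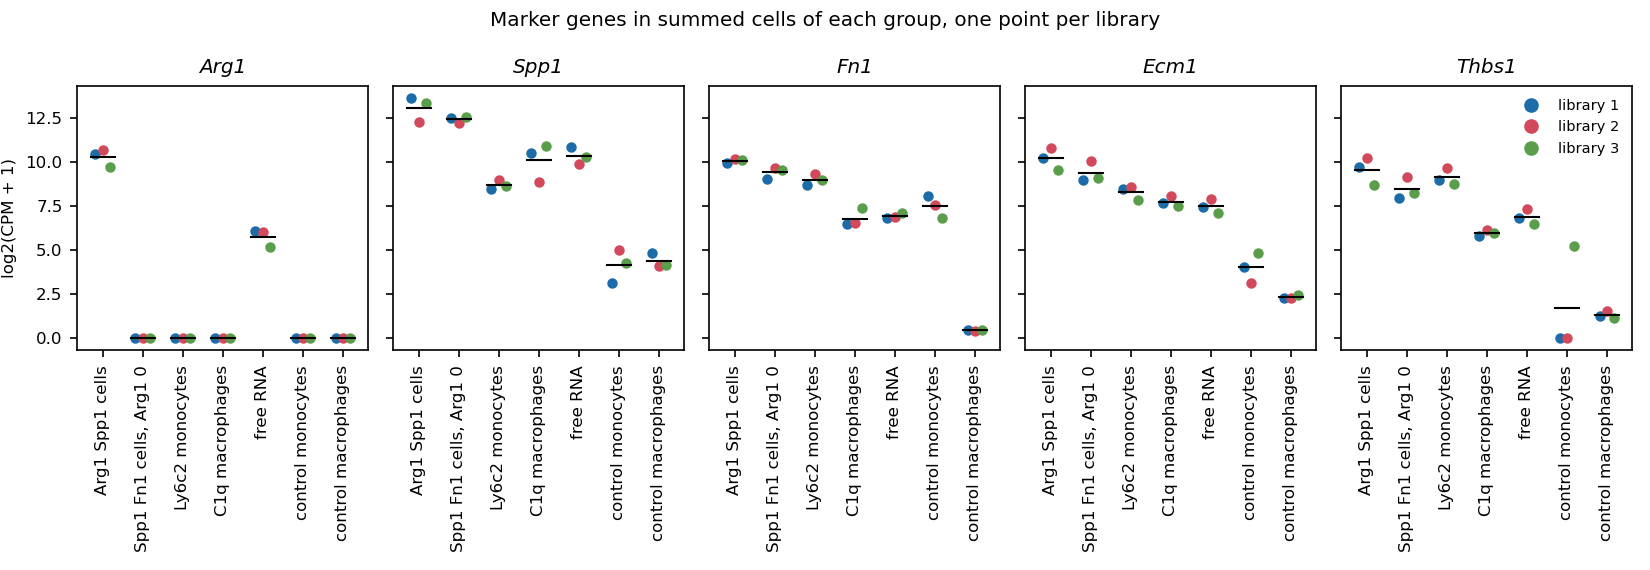
Level of Arg1, Spp1, Fn1, Ecm1 and Thbs1 in each library, as log2(CPM + 1), by cell group, with a line at the mean. In the Arg1 Spp1 cells Ecm1 lies between 766 and 1830 CPM, above the monocytes, macrophages and free RNA of the same libraries; Arg1 is 0 in the reference groups by the rule.

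Cells with Arg1 also occurred in control kidneys, with other marker genes. The control libraries held 60, 32 and 20 cells with Arg1, 112 in all, and 0 of them had a UMI of Spp1. Of these, 87 had Gata3, 58 had Il1rl1 and 93 had Il7r, genes of type 2 innate lymphoid cells, tissue lymphocytes known to express arginase. Only 4 of the 112 had Csf1r, the receptor of the macrophage growth factor. Of the 192 rhabdomyolysis members, 0 had Gata3, 0 had Il1rl1, 19 had Il7r and 165 had Csf1r. Lyz2, the lysozyme of monocytes and macrophages, was found in all members and in 20 of the 112 control cells with Arg1.

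The label of these cells as monocyte-derived was checked against markers; descent itself was not measured. Over 10 classical monocyte markers the members summed to 6698 to 8516 CPM across libraries, between Ly6c2 monocytes at 15957 to 16603 and C1q macrophages at 1040 to 1886. Over 14 macrophage markers they summed to 12196 to 18918 CPM, against 8585 to 15226 in Ly6c2 monocytes and 26093 to 36408 in C1q macrophages. Free RNA held 23106 to 29692 CPM of that macrophage list, so the part of free RNA in the members' sum was not tested. The monocytes were chosen on Ly6c2 and the macrophages on C1q genes, which belong to these lists. The members were chosen on Fn1, which is in the monocyte list, at 983, 1186 and 1137 CPM in libraries 1, 2 and 3. Chil3 alone gave 6143, 4808 and 4090 CPM of their monocyte sum, so that sum rests largely on 1 transcript. The members had transcripts of both classes.

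Ly6c2, the surface antigen of inflammatory monocytes, was found in 42 members, which is 21.9%, with 9, 13 and 20 cells in libraries 1, 2 and 3. At least 5 UMIs of the C1q genes, complement genes of macrophages, were found in 103 members, which is 53.6%. Markers of several other cell types were low. The T cell list summed to 3.64 to 27.1 CPM and the B cell list to 9.97 to 18.2, but they hold Cd3e and Cd79a, kept at 0 by the rule. The kidney tubule list summed to 3.64 to 7.12 CPM, the endothelial list to 2.85 to 10.9 and the NK cell list to 1.73 to 66.7. The plasmacytoid dendritic cell list was higher, at 295 to 485 CPM, as was the plasma cell list at 101 to 152. In Ly6c2 monocytes these lists summed to 261 to 322 and 133 to 160 CPM. The neutrophil list, of which S100a8 and S100a9 are used by the rule, summed to 241 to 427 CPM. The platelet list summed to 886 to 2589 CPM, nearly all of it Pf4, with 6, 7 and 4 of its 9 genes at 0.

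Antibody tags counted in the same droplets gave a readout that the rule did not use, although the labels list no tags. The median count per member of the F4/80 tag, a surface protein of macrophages, was 32, 39 and 52.5 in libraries 1, 2 and 3. Ly6c2 monocytes had 12, 15.5 and 22, and C1q macrophages had 31, 42 and 52. By these counts the members were above the monocytes and near the macrophages in each library.

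The other 5 tags were also higher on members than on Ly6c2 monocytes in each library, including those of lymphocytes. The CD4 tag had a median of 14, 21 and 31.5 on members against 4, 6 and 6.5 on Ly6c2 monocytes, 4, 4 and 11 on C1q macrophages and 2.5, 2 and 12.5 on T cells. The CD3 tag had 9, 12 and 13 on members and 4.5, 7.5 and 8.5 on T cells. Summed over 6 tags the median was 95, 119 and 147.5 on members, 34, 39 and 52.5 on monocytes and 55, 73 and 99 on macrophages. As a share of a cell's tag counts, F4/80 had a median of 35.0%, 33.9% and 33.0% on members and 41.0%, 40.5% and 44.0% on monocytes. The order of these groups thus turns with the scale. On C1q macrophages the share was 53.7%, 58.2% and 52.9%, so on that scale the members were not near the macrophages. The CD3 tag had a median share of 7.66%, 8.70% and 8.45% on members and 24.4%, 22.9% and 17.9% on T cells. By share the members were thus below the T cells for CD3, while by counts they were above. The members' excess of counts extends to antibodies against T cell proteins, and the part of unspecific binding in the F4/80 counts was not tested.

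**Figure D2:**
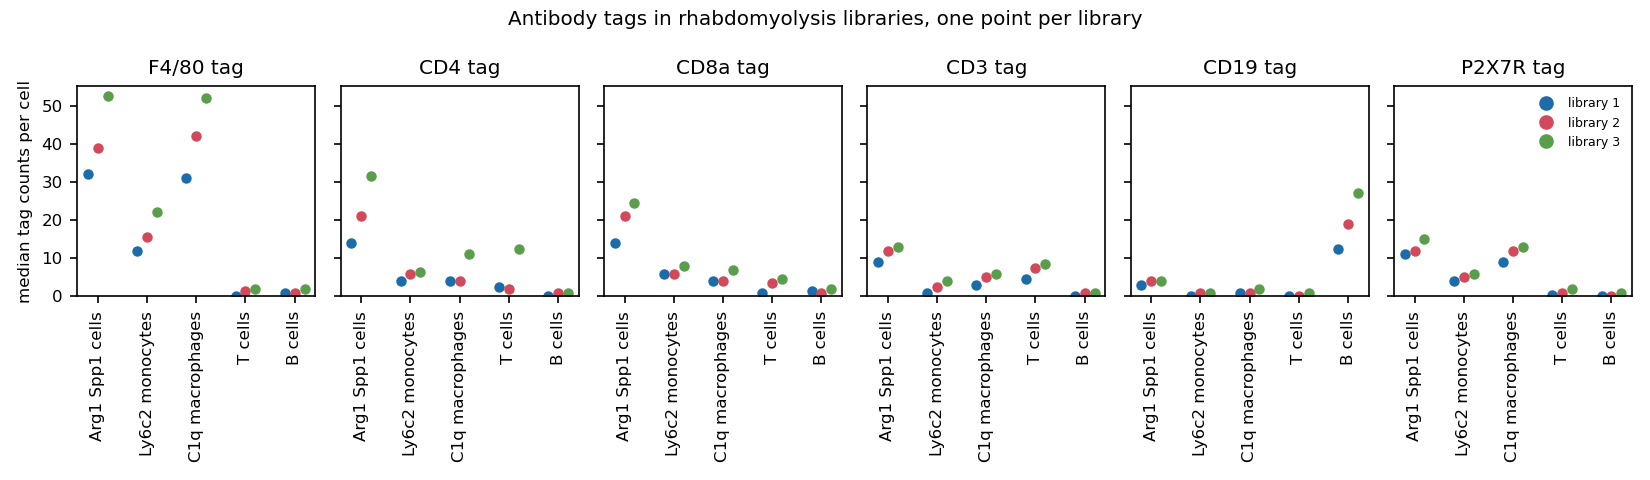
Median count per cell of each of the 6 antibody tags, by cell group and library. On the Arg1 Spp1 cells the F4/80 tag count lies between 32 and 52.5, near that on C1q macrophages, and the CD4 and CD3 tags lie above those on T cells.

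The first comparison asks how these cells differ from monocytes of the same kidneys that had Ly6c2 and no Arg1. The reference was 39, 90 and 98 rhabdomyolysis cells in libraries 1, 2 and 3 with at least 1 UMI of Ly6c2 and of Lyz2 and with no UMI of Arg1, Nkg7 or Siglech. The limits on S100a8 and S100a9, Cd3e and Cd79a were the same as for members. Members had more Ecm1, Cxcl3, Ccl7 and Ccl2, 12 of 20 lipid-associated genes and 11 of 22 glycolysis and hypoxia genes were higher, and 16 of 20 genes of the blood monocyte program and 6 of 11 of MHC class II were lower. Of 6099 genes tested, 571 rose (9.36%) and 670 fell (11%), 20.3% in all, in edgeR's quasi-likelihood test with library as a block at an adjusted p under 0.05. The median log2 change of all tested genes was -0.01. Selecting cells on Arg1, Spp1 and Fn1 also selects on genes that vary with them from cell to cell, so this contrast describes the selected cells.

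Matrix and wound proteins moved in both directions: of 14 tested genes of that list, 5 rose and 4 fell, with a median log2 change of 0.08. Ecm1 (ENSMUSG00000028108) was at 1222, 1830 and 766 CPM in members of libraries 1, 2 and 3 and at 357, 390 and 232 in Ly6c2 monocytes. All 3 member values lay above all 3 monocyte values, and the log2 change was 1.87 ± 0.11 (SE, edgeR adjusted p = 7.31e-07). In control monocytes, of which there were 16, 15 and 10 cells, Ecm1 was at 15.7, 8.03 and 27.9 CPM.

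Thbs1 (ENSMUSG00000040152) was at 836, 1198 and 422 CPM in members and at 505, 826 and 435 in Ly6c2 monocytes, so the groups overlapped. Its log2 change of 0.35 ± 0.13 was not called (SE, edgeR adjusted p = 0.0797), and without library 3, where members were not above monocytes, it was 0.58 (adjusted p = 0.000645). With every cell thinned to 1000 UMIs Thbs1 was called, with a log2 change of 0.92. Without the limits on Lyz2, Nkg7 and Siglech in the reference it was also called, at 0.55 (edgeR adjusted p = 0.000741). It passed narrowly with library totals (0.0467) and without marked doublets (0.0487). It was not called without library 1 (0.409), without library 2 (0.294), without the block (0.493) or in DESeq2 (0.321). The call on Thbs1 thus depended on the reference and the fit. Thbs1 was found in 155 of the 192 members and Ecm1 in 189. Thinned to 1000 UMIs, 42.7% of members and 39.6% of Ly6c2 monocytes had Thbs1, and 59.4% and 24.2% had Ecm1.

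Tgfbi, Lgals1, Plod1 and P4ha1 were the other genes of the list that rose, Lgals1 (galectin-1) by a log2 change of 1.77 ± 0.12. Vcan, Lgals3, Anxa1 and Emilin2 fell, and Vcan (versican, a proteoglycan of blood monocytes) had a log2 change of -1.48 ± 0.16. The interstitial collagen genes Col1a1 and Col3a1 did not pass the filter on low counts.

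Receptors for osteopontin, fibronectin and thrombospondin split: 4 of 11 tested genes rose and 4 fell. Lrp1, the scavenger receptor that clears thrombospondin, rose by a log2 change of 0.86, and the syndecans Sdc3 and Sdc4 and the integrin Itgb5 rose too. Itga4 fell by 1.96 on the log2 scale and Cd44, the osteopontin and hyaluronan receptor, fell by 0.68.

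Among proteases and their inhibitors 8 of 17 tested genes rose and 4 fell. The lysosomal cathepsin genes Ctsl, Ctsd, Ctsb and Ctsz rose, while Ctss was not called. Ctsl was at 2325, 2441 and 1499.8 CPM in members and at 791, 662 and 461 in Ly6c2 monocytes, with no overlap and a log2 change of 1.66 ± 0.08 (SE, edgeR adjusted p = 2.21e-07). Ctsd rose by 1.48 and Ctsb by 1.09 on the log2 scale. Mmp14, a membrane-bound collagenase, rose by 2.24 ± 0.23 and the sheddase Adam8 by 1.57 ± 0.11. Mmp8, the collagenase of neutrophil granules, fell by 3.38 on the log2 scale.

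In the arginine and polyamine list 5 of 13 tested genes rose and 2 fell, with a median log2 change of 0.57; Arg1 itself is used by the rule and is not in these counts. Odc1 (ornithine decarboxylase, the first step from ornithine to polyamines) rose by 1.19 ± 0.20, Srm (spermidine synthase) by 1.16 ± 0.24, Sms (spermine synthase) by 1.25 ± 0.22 and Ass1 (argininosuccinate synthase, which makes arginine anew) by 1.27 ± 0.28. Sat1, which begins the breakdown of polyamines, fell by 1.10 on the log2 scale, and Arg2, the mitochondrial arginase, fell by 0.98. Odc1 and Ass1 lost the call without the block on library, and Ass1 and Srm lost it under DESeq2 and without library 3.

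Of the glycolysis and hypoxia list 11 of 22 tested genes rose and 0 fell, with a median log2 change of 0.54. Mif, a cytokine, was at 342, 255 and 457 CPM in members and at 109, 120 and 129 in Ly6c2 monocytes, and rose by 1.48 ± 0.14 on the log2 scale. The glycolytic enzymes Hk2, Pfkl, Tpi1, Gapdh, Pgk1, Pgam1, Eno1, Pkm and Ldha rose, Ldha by 0.72 ± 0.10 and Hk2 by 0.94 ± 0.28.

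Lipid-associated macrophage genes had the highest median of the function lists, 1.07 on the log2 scale, with 12 of 20 tested genes higher and 1 lower. Fabp5, a fatty acid carrier, was at 258, 206 and 525 CPM in members and at 39.2, 64.7 and 72.0 in Ly6c2 monocytes, a log2 change of 2.38 ± 0.20 (SE, edgeR adjusted p = 1.07e-05). A UMI of Fabp5 was found in 30.2% of members and 20.7% of Ly6c2 monocytes, so most members had none. Lpl (lipoprotein lipase) rose by 2.09 ± 0.33, Cd63 (a tetraspanin of lysosomes) by 2.10 ± 0.23, Cd9 by 1.64 ± 0.16, the scavenger receptor Msr1 by 1.52 ± 0.11 and the lipid droplet protein Plin2 by 1.22 ± 0.09. Trem2, a lipid receptor, rose by 0.67 ± 0.12, and Gpnmb, a lysosomal glycoprotein, passed the threshold narrowly at 2.05 ± 0.66 (SE, edgeR adjusted p = 0.0497). Gpnmb was uneven between libraries, at 24.2, 8.54 and 91.8 CPM in members and 13.1, 16.7 and 3.43 in monocytes, and in library 2 it was lower in the members. Without library 3 its log2 change was -0.05 (adjusted p = 0.969).

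Inflammatory cytokines and chemokines moved in both directions, with 12 of 28 tested genes higher, 6 lower and a median log2 change of -0.01. Cxcl3, a neutrophil attractant, was at 744, 1059 and 122 CPM in members and at 17.4, 63.6 and 7.71 in Ly6c2 monocytes, a log2 change of 4.26 ± 0.19 (SE, edgeR adjusted p = 1.65e-07). A UMI of Cxcl3 was found in 30.2% of members and 6.17% of Ly6c2 monocytes, so most members had none. The monocyte attractants Ccl2 and Ccl7 rose by 1.70 ± 0.10 and 2.76 ± 0.40 on the log2 scale. Ccl2 was at 7017, 7846 and 6321 CPM in members and at 1614, 2738 and 2038 in Ly6c2 monocytes, with no overlap. Il1a rose by 1.68 ± 0.37 and Il1rn, the antagonist of the same receptor, by 1.94 ± 0.25. Tnf fell by 0.49 on the log2 scale and Saa3, an acute phase protein, by 1.48.

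Of 9 genes looked for, the sequence before the transcription start was in hand for Spp1, Ecm1, Cxcl3, Gpnmb and, described further on, Pf4; Arg1, Fn1, Thbs1 and Fabp5 are only named. Spp1, Ecm1, Cxcl3 and Pf4 are shown for their summed levels in the members, although Cxcl3 was found in only 30.2% of them. Gpnmb, at a low and uneven level, is not shown. Each run is the 250 bases before the start in RefSeq, build GRCm38.p6, 5′ to 3′ on the strand of the gene, with motif matches in capitals.
Spp1, chr5:104434861-104435110, plus strand: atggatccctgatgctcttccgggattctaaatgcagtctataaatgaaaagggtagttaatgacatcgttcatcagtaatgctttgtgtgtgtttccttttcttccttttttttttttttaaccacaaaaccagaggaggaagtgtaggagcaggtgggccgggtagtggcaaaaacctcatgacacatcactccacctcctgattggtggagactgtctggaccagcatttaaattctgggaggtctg
Ecm1, chr3:95739570-95739819, minus strand: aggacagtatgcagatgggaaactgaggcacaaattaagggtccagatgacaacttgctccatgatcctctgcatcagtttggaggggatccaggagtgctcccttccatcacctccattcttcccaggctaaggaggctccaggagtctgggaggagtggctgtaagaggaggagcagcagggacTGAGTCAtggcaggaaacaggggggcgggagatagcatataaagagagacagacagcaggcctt
Cxcl3, chr5:90785851-90786100, plus strand: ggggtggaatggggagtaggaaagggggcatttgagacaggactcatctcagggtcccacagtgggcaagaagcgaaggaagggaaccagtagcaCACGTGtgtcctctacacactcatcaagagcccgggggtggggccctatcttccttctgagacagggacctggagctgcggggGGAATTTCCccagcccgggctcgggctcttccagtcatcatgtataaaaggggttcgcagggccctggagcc
Pf4, chr5:90772185-90772434, plus strand: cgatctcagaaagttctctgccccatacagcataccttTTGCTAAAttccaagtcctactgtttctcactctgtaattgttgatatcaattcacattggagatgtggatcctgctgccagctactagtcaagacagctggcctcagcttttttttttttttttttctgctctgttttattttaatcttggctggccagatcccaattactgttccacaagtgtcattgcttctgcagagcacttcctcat

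The motifs searched on both strands were TGANTCA (AP-1), ACGTG (hypoxia response), TTGCNNAA (C/EBP) and GGANTTTCC (NF-kB), with N for any base. Ecm1 has TGAGTCA at 64 to 58 bases before the start, and TGANTCA occurs in 6.75% of 32851 promoter windows of that length. Cxcl3 has GGAATTTCC at 72 to 64 bases before the start, where GGANTTTCC occurs in 1.07% of windows, and overlapping ACGTG matches on both strands at 155 to 150 bases, where ACGTG occurs in 16.6%. Pf4 has TTGCTAAA at 212 to 205 bases, a motif found in 9.56% of windows. For Spp1, which has 2 starts in the table, the most upstream was used and none of these letters is in its window. A match describes letters only; binding was not measured. Pf4 and Cxcl3 lie on the same strand with starts 13.7 kb apart.

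The genes of blood monocytes were lower: 16 of 20 tested genes of the monocyte program list fell and 0 rose, with a median log2 change of -1.07. The reference was chosen on Ly6c2, so this list is partly set by that choice. Plac8 was at 308, 211 and 338 CPM in members and at 2176, 2715 and 3311 in Ly6c2 monocytes, and fell by 3.31 ± 0.14 (SE) on the log2 scale. Ifitm6 fell by 4.03 and Hp (haptoglobin) by 2.74 on the log2 scale. Chil3, a chitinase-like protein, fell by 1.05 ± 0.07 but was still at 6143, 4808 and 4090 CPM in members. Ccr2, the receptor through which Ccl2 draws monocytes, was at 354, 293 and 422 CPM in members and at 405, 300.5 and 578 in Ly6c2 monocytes, a log2 change of -0.30 that was not called (edgeR adjusted p = 0.0700).

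**Figure D3:**
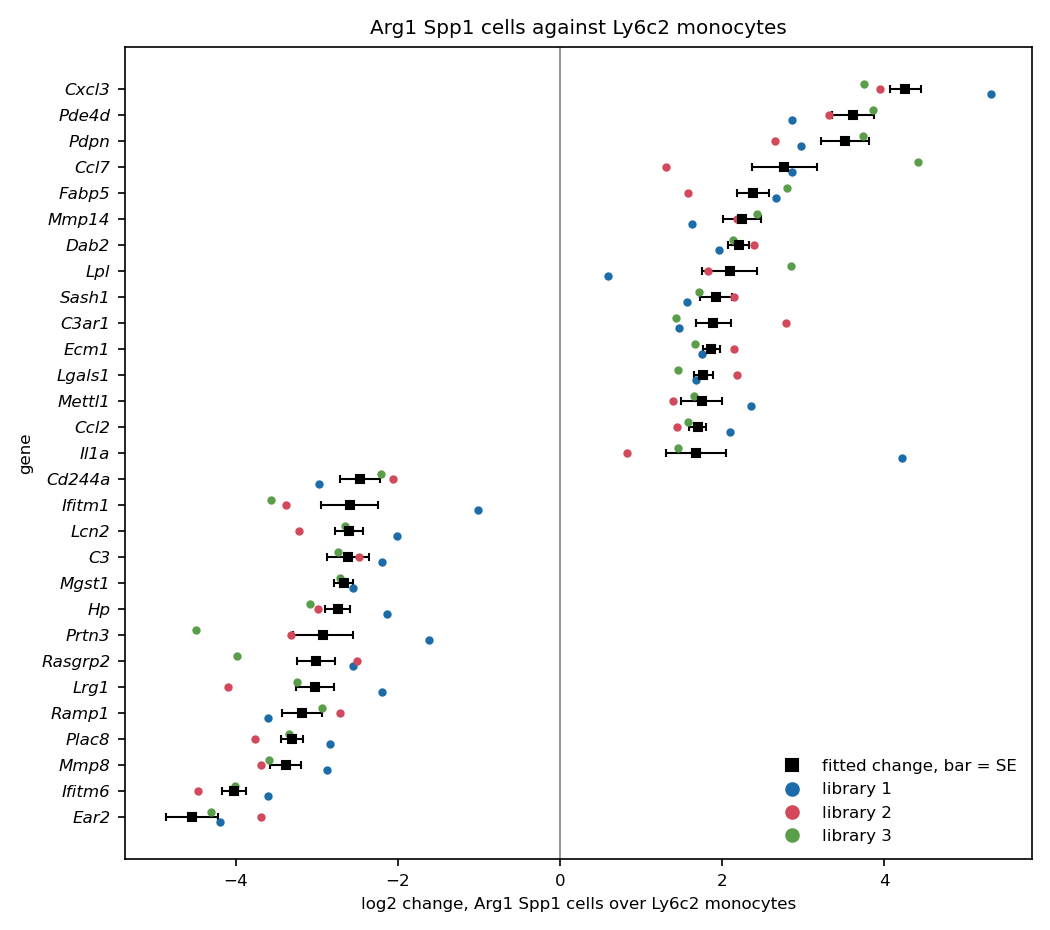
Log2 change of the genes that rose and fell most by the naming rule, except 1 that is not reported, Arg1 Spp1 cells against Ly6c2 monocytes, as the fitted value with its SE (squares) and the difference in each library (points). Cxcl3 leads the rises at 4.26 and Ear2 the falls at -4.54; the naming rule takes genes with the same sign in all 3 libraries.

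MHC class II genes fell in 6 of 11 tested genes and rose in 0. H2-Eb1 was at 379, 221 and 220 CPM in members and at 821, 343 and 486 in Ly6c2 monocytes, and fell by 1.03 ± 0.11 on the log2 scale. Cd74, the chain that guides class II molecules, fell by 0.63. These are summed levels. The share of cells with a UMI went the other way for H2-Eb1, at 21.4% of members and 15.9% of Ly6c2 monocytes. For Cd74 it was 58.9% and 47.6%, and H2-Aa, H2-Ab1 and Ifi30 were also found in more members. H2-DMa was found in fewer, 58.9% against 63.0%. Members were the deeper cells, and the spread of class II levels between cells was not tested. Free RNA held 2153, 2503 and 1799.7 CPM of H2-Eb1, far above both groups, and its part in these low levels was not tested.

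Heat shock and immediate early genes, which also respond to tissue dissociation, rose in 4 and fell in 14 of 27 tested genes. Nr4a1 fell by 2.36 and Klf2, a factor of quiescent and circulating cells, by 2.05 on the log2 scale, and the heat shock protein genes Hsp90aa1, Hsp90ab1, Hspe1 and Hspd1 rose. Of 34 tested transcription factors of myeloid cells 2 rose, Maf and Rbpj, and 13 fell, among them Cebpb. Ribosomal protein genes fell in 22 of 38 tested and rose in 0, with a median log2 change of -0.21.

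Genes of heme and iron handling rose in 5 and fell in 3 of 16 tested genes. Hmox1, the heme oxygenase that breaks down heme, was at 713, 927 and 191 CPM in members and at 525, 569 and 349 in Ly6c2 monocytes, a log2 change of 0.08 that was not called (edgeR adjusted p = 0.852). In library 3 Hmox1 was lower in members than in monocytes. In the Nrf2 and oxidative stress list 2 of 23 tested genes rose and 6 fell. The type I interferon list had 0 rises and 2 falls among 23 tested genes, the alternative activation list 2 rises and 4 falls among 8, with Mrc1 (the mannose receptor) higher by 2.72 ± 0.49, and the growth factor list 2 rises and 1 fall among 5.

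Resident macrophage and complement genes rose in 10 and fell in 6 of 21 tested genes. C1qa was at 2005, 971 and 1177 CPM in members and at 1809.8, 460 and 642 in Ly6c2 monocytes, a log2 change of 0.64 ± 0.13, while free RNA held 6251, 4563 and 5110.5 CPM. This direction turned with the reference: against cells that met the rule except that Arg1 was 0, C1qa was lower in members, with a log2 change of -0.68 ± 0.10 (SE, edgeR adjusted p = 0.00212), as were C1qb (-0.49) and C1qc (-0.54). Pf4, a CXC chemokine of platelets that macrophages also express, had the largest log2 change of the genes called higher in this contrast, 4.90 ± 0.21. Pf4 was at 2530, 884 and 1392 CPM in members, at 84.9, 48.0 and 24.9 in Ly6c2 monocytes and at 1289, 534.5 and 691 in free RNA. It fell outside the naming rule, which asks for over 2 times the free RNA level in every library, and is named here after its values were seen.

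The number of calls depended on the fit. Without the block on library 198 genes rose and 277 fell. With each cell thinned to 1000 UMIs 108 rose and 125 fell. Leaving out library 2 or library 3 gave 359 and 351 rises, and leaving out library 3 gave 451 falls.

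A closer reference was added after seeing the data: the 218 cells, 51, 49 and 118 by library, that met every limit of the rule except that Arg1 was 0. They hold 53 cells with Ly6c2, and a cell with 0 Arg1 UMIs may still hold the transcript. Against them 52 of 5699 tested genes rose in members (0.912%) and 66 fell (1.16%), 2.07% in all. Against these cells, which met the same limits on Spp1 and Fn1, 118 genes were called, where 1241 were called against Ly6c2 monocytes. Both contrasts use the same member cells. The levels were not matched. Spp1 was at 5897, 4891 and 6030 CPM without Arg1 and at 12852, 4983 and 10699 in members. Fn1 was at 537, 805 and 765 CPM without Arg1 and at 983, 1186 and 1137 in members.

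Fabp5 stood at 21.0, 57.8 and 81.2 CPM in the cells without Arg1, against 258, 206 and 525 in members, a log2 change of 2.63 ± 0.19 (SE, edgeR adjusted p = 3.79e-06). Ecm1 was at 508, 1063 and 554 CPM without Arg1, and rose in members by 0.83 ± 0.12 (SE, edgeR adjusted p = 0.0014). Thbs1 was at 250, 584 and 309 CPM without Arg1, and rose by 1.05 ± 0.17 (SE, edgeR adjusted p = 0.00311). For both Ecm1 and Thbs1 the groups overlapped, since the cells without Arg1 in library 2 exceed the members of library 3, although members were higher within each library.

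Cxcl3 rose against the cells without Arg1 by 2.16 ± 0.42, Pde4d (a phosphodiesterase of cyclic AMP) by 1.92 ± 0.19, Pf4 by 1.35 ± 0.18, Ctsl by 1.21 ± 0.08, Ccl7 by 1.11 ± 0.25 and Ccl2 by 0.90 ± 0.12 on the log2 scale. Cxcl3 differed little in library 3, at 122 CPM in members and 109 in the cells without Arg1, and Ccl7 was not higher in members of library 2, at 980 against 1014 CPM. The lipid-associated list had 8 rises and 0 falls among 20 tested genes, the glycolysis list 5 and 0 among 23 and the matrix list 4 and 0 among 13. MHC class II genes fell in 6 of 10 tested, H2-Eb1 by 1.89 ± 0.18 on the log2 scale, and resident macrophage and complement genes rose in 3 and fell in 5 of 20. The arginine and polyamine list had 0 calls among 14 tested genes in edgeR, as had the Nrf2 list among 23 and the interferon list among 20.

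**Figure D4:**
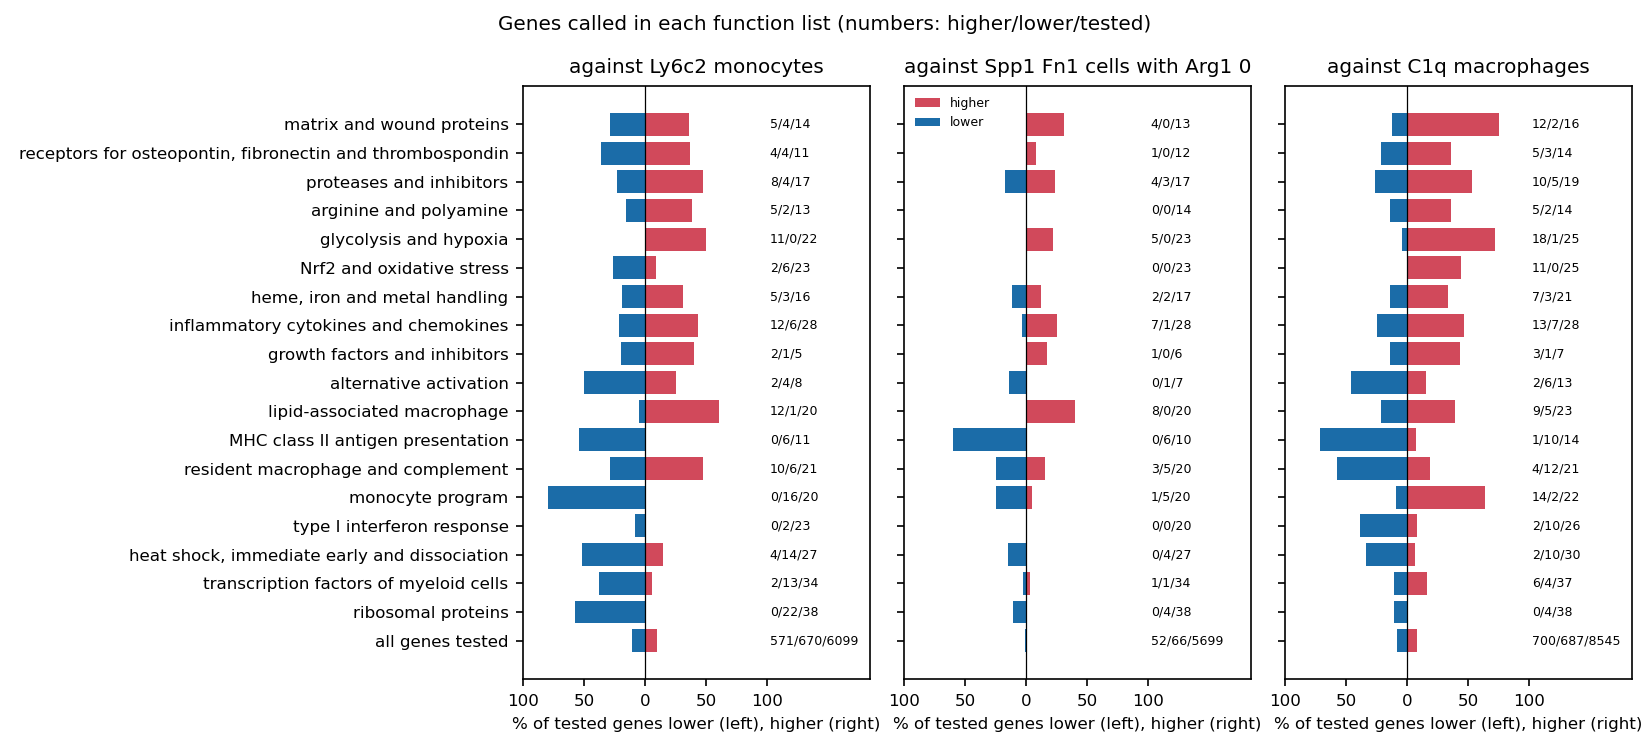
Share of the tested genes of each function list that were higher (right) or lower (left) in Arg1 Spp1 cells, against Ly6c2 monocytes, against Spp1 Fn1 cells without Arg1 and against C1q macrophages, with the numbers higher, lower and tested. The lipid-associated list has 12, 8 and 9 higher genes, and MHC class II has 6, 6 and 10 lower ones.

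The other main comparison set the members against C1q macrophages, cells of the same libraries with at least 5 UMIs of the C1q genes and with no Arg1 or Ly6c2. There were 457, 736 and 519 of them, and these genes do not separate resident from infiltrating macrophages. The limits on S100a8 and S100a9, Cd3e and Cd79a were the same as for members. Members had more genes higher than lower in the matrix, monocyte program, glycolysis and oxidative stress lists, and more lower than higher in the MHC class II and resident macrophage lists. Of 8545 genes tested 700 rose (8.19%) and 687 fell (8.04%), 16.2% in all, with a median log2 change of -0.03. Both this contrast and the first share the member cells, so their values are set side by side and no overlap is read.

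Matrix and wound proteins rose in 12 of 16 tested genes and fell in 2, with a median log2 change of 1.68. Thbs1 was at 55.8, 69.0 and 63.4 CPM in C1q macrophages against 836, 1198 and 422 in members, a log2 change of 3.64 ± 0.22 (SE, edgeR adjusted p = 8.03e-07). Ecm1 was at 206, 272 and 185 CPM in macrophages, close to free RNA at 178, 243 and 140, and rose by 2.51 ± 0.15 (SE, edgeR adjusted p = 7.74e-07). F13a1, which encodes a chain of the clot-stabilising factor XIII, rose by 2.38 ± 0.16 and F10, coagulation factor X, by 3.23 ± 0.24. Among the rule's genes, Spp1 stood at 1450, 475 and 1953 CPM in macrophages and Fn1 at 87.9, 92.1 and 165, given without a test.

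The monocyte program, low in the first contrast, was high here: 14 of 22 tested genes rose and 2 fell. The macrophages were chosen on C1q genes and without Ly6c2, so this list is partly set by that choice. Chil3 was at 624, 639 and 1010 CPM in macrophages and rose by 2.8 ± 0.20 on the log2 scale. Ccr2 was at 106, 82.4 and 164 CPM in macrophages and rose by 1.69 ± 0.14. Chil3 in members thus lay below all Ly6c2 monocytes and above all C1q macrophages.

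Glycolysis and hypoxia genes rose in 18 of 25 tested and fell in 1, with a median log2 change of 0.83. Hif1a, the oxygen-sensing factor, was at 176, 162 and 144 CPM in members and at 50.5, 87.7 and 57.7 in macrophages, a log2 change of 1.38 ± 0.18. Vegfa, an angiogenic growth factor, rose by 2.70 ± 0.49 from low levels of 12.1, 11.4 and 15.6 CPM in members.

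The Nrf2 and oxidative stress list rose in 11 of 25 tested genes and fell in 0. Hmox1 was at 154, 223 and 121 CPM in macrophages against 713, 927 and 191 in members, and rose by 1.72 ± 0.23 (SE, edgeR adjusted p = 0.000299). The difference was small in library 3, where both groups were at their lowest. Heme, iron and metal genes rose in 7 and fell in 3 of 21 tested.

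Chemokine genes moved in both directions. Of 28 inflammatory genes tested, 13 rose and 7 fell. Cxcl3 rose by 2.59 ± 0.39, Ccl7 by 2.62 ± 0.24 and Ccl2 by 2.44 ± 0.22 on the log2 scale. Ccl3 and Ccl4, macrophage inflammatory proteins, fell by 1.71 ± 0.14 and 2.20 ± 0.19: Ccl4 was at 410, 159 and 641 CPM in members and at 3023, 682 and 2214 in macrophages.

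MHC class II genes fell in 10 of 14 tested and rose in 1, Ifi30, a thiol reductase of lysosomes, with a median log2 change of -1.62. H2-Ab1 was at 400.0, 252 and 212 CPM in members and at 1709, 2703 and 1893 in macrophages, a fall of 2.83 ± 0.22 on the log2 scale. Resident macrophage and complement genes rose in 4 and fell in 12 of 21 tested, Cd81 by 3.0 ± 0.21. Choosing the macrophages on C1q genes partly sets that list too. Mgl2, a lectin of dendritic cells and macrophages, fell by 3.86 ± 0.19, and Mmp12, the macrophage elastase, by 2.50 ± 0.21.

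The lipid-associated list rose in 9 and fell in 5 of 23 tested genes. Gpnmb was at 0.624, 0.220 and 0.437 CPM in macrophages against 24.2, 8.54 and 91.8 in members, a log2 change of 6.59 ± 0.45 (SE, edgeR adjusted p = 1.58e-06). The macrophage level rests on very few UMIs, so the size of this change is uncertain. A UMI of Gpnmb was found in 10.4% of members and 0.234% of macrophages. Fabp5 rose by 3.82 ± 0.15, and Fabp4, Cd36, Cd63, Apoe and Abcg1 fell. Arginine and polyamine genes rose in 5 and fell in 2 of 14 tested, proteases and inhibitors rose in 10 and fell in 5 of 19, receptors rose in 5 and fell in 3 of 14, and interferon genes rose in 2 and fell in 10 of 26.

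The macrophage reference held 69 cells with the endothelial genes Plvap, Egfl7 or Emcn, and the part of these in the falls of such genes was not tested one by one. Against the 1183 macrophages with Csf1r and without those genes, 1187 genes were called, 1155 of them among the 1387 called before. The calls lost include Fabp4 (log2 change -0.70, edgeR adjusted p = 0.318) and Sparc (-1.0, adjusted p = 0.159), and also Apoe and Ifi30. Leaving out library 1 or library 3 gave 372 and 393 rises in place of 700.

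Within the members, the 42 cells with Ly6c2 were set against the 150 without it, to see how they vary among themselves along the blood monocyte marker. In libraries 1, 2 and 3 they held 158946, 247861 and 325250 gene UMIs in 9, 13 and 20 cells with Ly6c2. The 52, 38 and 60 cells without it held 666050, 454364 and 828902, fewer per cell in each library. Splitting on Ly6c2 also selects on depth and on genes that vary with Ly6c2 from cell to cell. Of 3910 genes tested, 5 rose in the cells with Ly6c2 (0.128%) and 1 fell (0.0256%), 0.153% in all. Ifitm6 was at 120, 56.5 and 98.4 CPM with Ly6c2 and at 30, 11 and 9.65 without, a log2 change of 2.53 ± 0.34 (SE, edgeR adjusted p = 0.00843). Plac8 was at 459, 355 and 692 CPM with Ly6c2 and at 272, 132 and 199 without, a log2 change of 1.35 ± 0.19 (SE, edgeR adjusted p = 0.0103). Ifitm6 and Plac8 are among the genes of Ly6c2 monocytes that were low in the members as a whole.

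Lcn2, an iron-siderophore binding protein of the acute phase, rose by 2.20 ± 0.26 (SE, edgeR adjusted p = 0.00297), Slpi, a protease inhibitor, by 1.31 ± 0.16 (adjusted p = 0.00297) and Saa3 by 1.72 ± 0.28 (adjusted p = 0.036). Pf4 fell: it was at 1082, 149 and 418 CPM with Ly6c2 and at 2875, 1285 and 1773 without, a log2 change of -2.10 ± 0.22 (SE, edgeR adjusted p = 0.00219). Within each library Pf4 was lower in the cells with Ly6c2, and free RNA at 1289, 534.5 and 691 CPM lay between the groups in each library.

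Arg1, a gene of the rule and given without a test, was at 327, 867 and 759 CPM in members with Ly6c2 and at 1664, 2095 and 900 in members without. Ecm1 and Thbs1 were not called between these cells, at a log2 change of -0.50 ± 0.12 (SE, edgeR adjusted p = 0.19) and -0.03 ± 0.12 (adjusted p = 0.996). The groups are small, 9, 13 and 20 cells with Ly6c2. Without the block on library 0 genes were called in edgeR, with 122 of 3910 at an unadjusted p under 0.05. With the block, DESeq2 called 5 genes. Leaving out library 1 gave 40 rises and 26 falls, leaving out library 2 gave 9 and 2, and leaving out library 3 gave 3 and 4, with Ifitm6 at an adjusted p of 0.0767, Plac8 at 0.085 and Saa3 at 0.0694. Saa3 also lost the call without marked doublets (adjusted p = 0.362), under DESeq2 (0.660) and with library totals in place of TMM scaling (0.0568).

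**Figure D5:**
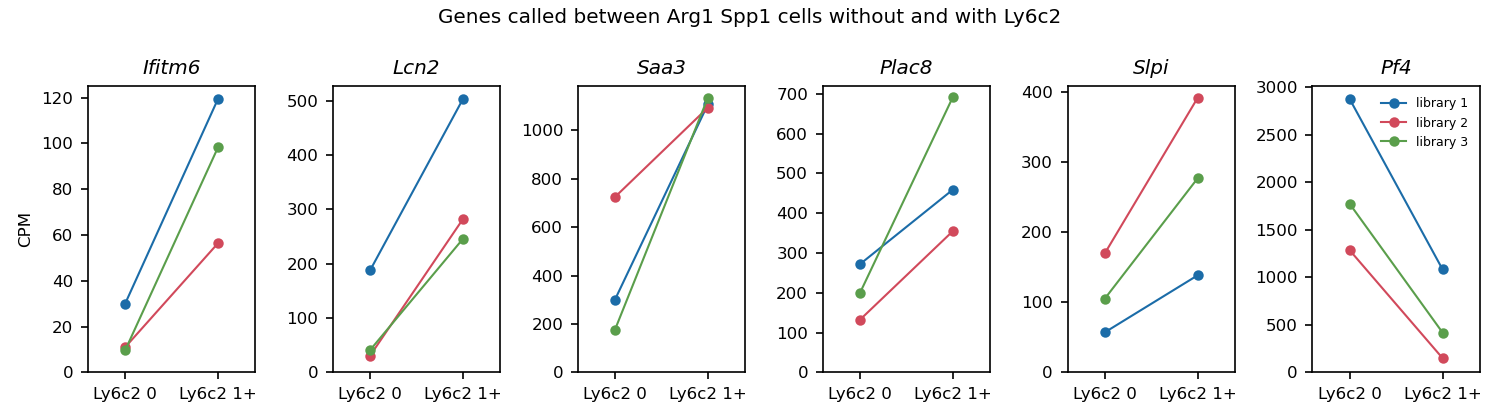
Level in CPM of Ifitm6, Lcn2, Saa3, Plac8, Slpi and Pf4 in Arg1 Spp1 cells without and with Ly6c2, with a line joining the values of a library. Pf4 is lower with Ly6c2 in all 3 libraries, and the other 5 genes are higher.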

How the data were processed

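Gene counts were UMIs per barcode and gene in unfiltered matrices deposited by the authors, made with Cell Ranger 4 per the file headers and with mm10 per the submitters' processing notes; the 6 antibody tags are in the same matrices. Barcodes were filtered as described, and 6794880 barcodes per library were read. Counts were summed per library and cell group and tested with edgeR 4.0.16 in R 4.3.3 (TMM scaling, default filter on low counts, library as a block, quasi-likelihood test, Benjamini-Hochberg adjustment over genes not used by the rules, adjusted p under 0.05). The block is the library because both cell groups of a contrast come from the same library. DESeq2 1.42.0 was an alternative. Members and gene lists were chosen with earlier results of these data known. Apart from the 5 marker genes, named genes are the 15 largest rises and falls in each contrast (10 within members) among called genes with an average log2 CPM of at least 5 and 1 direction in 3 libraries, rises also over 2 times free RNA, and up to 4 genes per list with the largest changes; other genes named were chosen after their values were seen. Doublets were marked by similarity to simulated pairs and kept. Cells were thinned to 1000 UMIs where stated. Genes not tested had too few counts, and 1 gene that the naming rule takes is not reported here. Promoters were matched by symbol for 5 of 9 genes looked for.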

Additional observations from a re-analysis of the deposited data

How the results depend on the processing

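Counts of genes called depended on the fit. Against Ly6c2 monocytes (571 higher, 670 lower) there were 198 and 277 with no replicate block, 158 and 236 with DESeq2, and 108 and 125 in cells thinned to 1000 UMIs. There were 236 and 269 with only the members that had Ly6c2 and Lyz2 and no Nkg7 or Siglech, 9, 12 and 20 cells by library. Against the cells with Arg1 0 but Spp1 and Fn1 there were 52 and 66. Without the limits on Lyz2, Nkg7 and Siglech in the monocyte reference 1565 genes were called in all, in place of 1241. Leaving out 1 library gave 351 to 464 higher and 451 to 577 lower. Against C1q macrophages (700 and 687) there were 218 and 252 with no replicate block, 362 and 353 with DESeq2, 147 and 179 thinned, and 1071 lower with no filter on low counts; leaving out 1 library gave 372 to 606 higher and 505 to 542 lower. Between members with and without Ly6c2 (5 and 1) there were 0 and 0 with no replicate block, 29 and 17 with no filter, 1 and 2 thinned, and 3 to 40 higher and 2 to 26 lower leaving out 1 library. The cause of each change was not tested, other than that thinning and leaving out libraries use fewer counts. Of 1168 calls against Ly6c2 monocytes that were also tested against the cells with Arg1 0, 1027 kept their sign there. Among the genes followed, Mmp12 (-0.907), C1qa (-0.682), C1qb (-0.489) and C1qc (-0.541) were called in the opposite direction, and Ass1 (-0.00525), Anxa1 (0.137), Cd9 (-0.0542), Chil3 (0.0788), Gsr (0.0400), Hsp90aa1 (-0.0610), Hsp90ab1 (-0.0549), Itgb7 (0.135), Lgals3 (0.332), Saa3 (0.559), Sdc4 (-0.0124), Vcan (0.0592) and Zbp1 (0.0439) had the opposite sign without a call. With members under 5 C1q UMIs, a choice that itself removes these genes, C1qa (-7.21), C1qb (-6.98) and C1qc (-5.84) turned, as did Mmp12 (-0.157). Gpnmb ranged from -0.0483 without library 3 to 3.38 without library 2. Against Ly6c2 monocytes the calls of Arg2, Hk2, Pgk1 and Tnf were lost without library 1, those of Arg2, C1qa, Hk2, Hspe1, Lgals3, Mmp12, Pfkl, Plod1, Sdc4, Tgfbi and Tnf without library 2, and those of Arg2, Ass1, Hspe1, Maf, Mmp12, P4ha1, Pfkl, Pgk1, Plod1, Sdc3 and Srm without library 3. Against C1q macrophages those of Apoe, Cd63 and Ifi30 were lost without library 1, of Abcg1, Apoe and Cd63 without library 2, and of Cd36 and Ifi30 without library 3. The rule gave 219 members with no minimum of Malat1. For genes at or under the free RNA level, the part of free RNA in the members' counts was not tested. The kidney tubule list summed to 3.64 to 7.12 CPM in members and 233 to 273 in free RNA. The erythroid list summed to 0 to 7.12 CPM in members and 598 to 13138 in free RNA.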
